A study of Homo sapiens with 6 samples.

Results

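The response of A549 cells to 1 ng/mL TGF-β1, the lower of the doses used, was described against untreated A549 cells. The comparison used 2 of the 6 libraries of the series, chosen by their labels alone, and all 25737 gene entries that each library listed. A549 is an established human lung carcinoma line with an epithelial origin, described in the labels as wild type. The treated cells received TGF-β1 for 48 h, starting 24 h after seeding, in RPMI1640 with serum lowered to 1%, while the maintenance medium held 10% serum. The medium of the untreated cells during these 48 h was not stated, so the change of serum and the cytokine cannot be told apart from the labels. The remaining libraries came from A549 cells given 5 ng/mL and from BEAS-2B, a line of bronchial epithelium immortalized from normal human tissue, given 0, 1 or 5 ng/mL.

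TGF-β1 is a secreted cytokine that binds a pair of receptor kinases, TGFBR2 and TGFBR1. The activated receptors phosphorylate SMAD2 and SMAD3, which enter the nucleus with SMAD4 and change the transcription of target genes. Sustained exposure drives epithelial-mesenchymal transition (EMT), in which cells lose junction proteins such as E-cadherin, assemble contractile actin fibres and secrete extracellular matrix (ECM). In the lung this response is studied as a model of fibrosis. A549 cells carry a KEAP1 defect that keeps the transcription factor NRF2 active, and the enzymes under its control are abundant in this line.

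With a single library for each condition, variation among cultures could not be measured, and conditions were compared without a test. The QuantSeq kit sequences mRNA from its 3′ end, so a count stands for a transcript largely regardless of its length. Read counts per gene symbol were deposited, with a total of 4144476 in the control and of 7841350 at 1 ng/mL. They were brought to a common scale by TMM normalization in edgeR, and the ND value is the log2 of the normalized count plus 1. Differentially expressed genes (DEGs) had a fold change (FC) of 2 or more in either direction, and an ND value of 7 or more in the control, in the treated library or in both. An ND value of 7 equals 110 counts in the control and 185 counts at 1 ng/mL. In the following, "rose" and "fell" are used of DEGs only. Folds without a log are ratios of normalized counts, and the range after a fold is its exact 95% Clopper-Pearson interval from the counts. These intervals reflect counting error alone, because each condition had 1 library. The reads carried no molecular identifiers and need not be independent molecules, so the intervals may understate even the counting error. Log2 FC values include a pseudocount of 1, which understates the change of genes with few reads. In bulk RNA, a change in the number of cells of a kind and a change of RNA per cell cannot be told apart.

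The epithelial identity of the cells was checked in both libraries. Of 6 epithelial markers, KRT7, KRT8, KRT18 and CDH1 reached the minimum, whereas KRT19 (41 and 22 counts in control and treated cells) and EPCAM (49 and 7 counts) did not. Endothelial markers summed to 3 counts in each of these libraries, and 8 leukocyte markers, none of which reached the minimum, summed to 27.3 CPM in the control and 13.3 CPM at 1 ng/mL. Nearly all of these reads were from CD14 (57 and 24 counts) and CD68 (51 and 73 counts), while PTPRC had 0 and 4 and CD3E was at 0. The 7 markers of basal airway cells summed to 11 and 25 counts, with KRT5 and KRT14 at 0 and NGFR at 0 and 15. Of the fibroblast markers, all 8, none of which reached the minimum, had more counts at 1 ng/mL than in the control, and their summed level was 7.24 CPM, the usual unit relative to the library total, in the control, 32.8 CPM at 1 ng/mL and 13.4 CPM at 5 ng/mL. COL6A3 had 0, 51 and 9 counts in these libraries, DCN had 2, 53 and 6, and LUM had 0, 15 and 9. The mesenchymal transcription factor gene PRRX1 followed the same order with 0, 37 and 6 counts. The levels of these genes are given again beside the matrix genes that they moved with, and their part in those results was not tested.

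At 1 ng/mL TGF-β1, 7007 genes reached the minimum and 1649 of them (23.5%) were DEGs. Of the 7007 genes, 766 rose (10.9%) and 883 fell (12.6%). These percentages are the background against which the gene groups below can be read. An ND value of 7 in both libraries held for 389 of the genes that rose and 358 of those that fell. The other DEGs reached the minimum through 1 library only and had to differ. The median log2 FC of the 7007 genes was 0.09 and the middle of the distribution ran from −0.48 to 0.56 between the quartiles. Genes that rose took 6.98% of all counts in the control and 18.3% at 1 ng/mL, while genes that fell went from 12.6% to 3.32%. Falls were more often large, since 78 genes fell at least 8-fold and 38 rose at least 8-fold. The counting interval lay wholly beyond 2-fold for 466 of the genes that rose and 625 of those that fell.

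**Figure D1:**
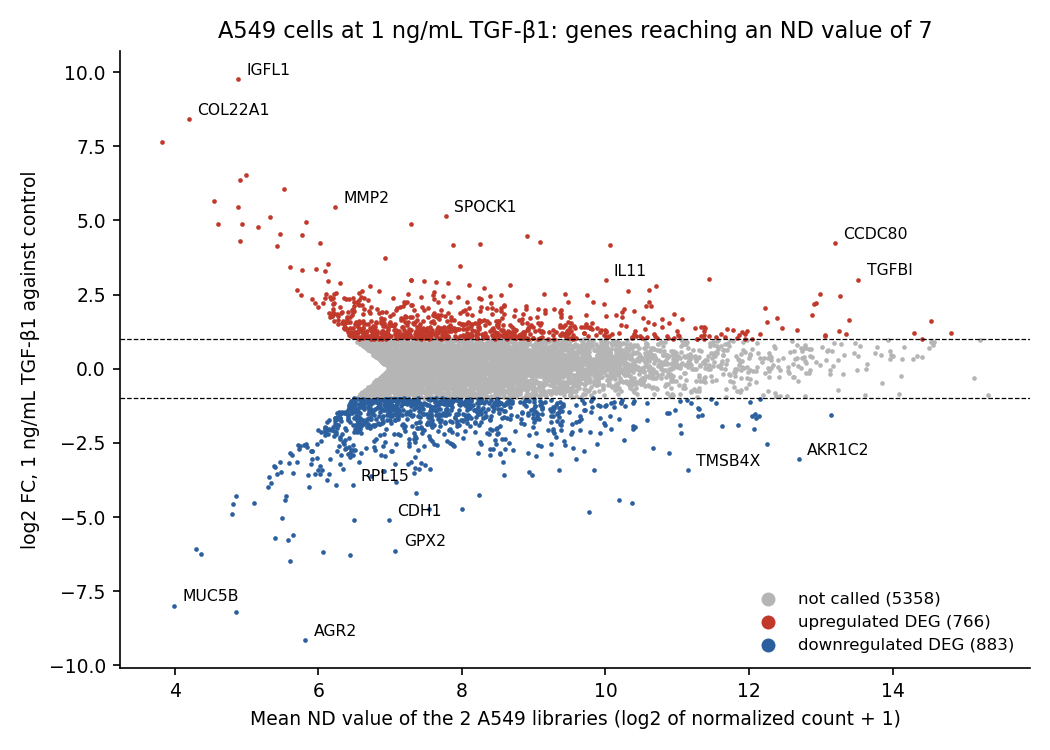
Each point is 1 of the 7007 genes that reached an ND value of 7 in the control or the treated A549 library, with the mean ND value of both libraries on the horizontal axis and the log2 FC at 1 ng/mL TGF-β1 on the vertical axis. Red points are the 766 genes that rose, blue points the 883 that fell, grey points the other genes, and dashed lines mark an FC of 2 in either direction.

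The balance of rises and falls depended on the scaling. Under total counts in place of TMM factors, all log2 FC values moved by −0.17, the median became −0.07, and 536 genes rose while 1131 fell. Among the genes named below, SKI, TCF4, AURKB, MCM5, PFKL, ATF4, TAPBP and CDKN1A no longer met the criteria then. The changes also followed the GC content of the transcripts. Genes that rose had a median GC content of 57.9%, those that fell of 45.7%, and all genes at the minimum of 48.4%. When 6949 genes with a known GC content were split into 5 groups of equal size, the median log2 FC was −0.14, −0.14, 0.01, 0.22 and 0.60 from the lowest to the highest GC content. In the group of highest GC content 389 genes rose and 80 fell, and in the lowest 45 rose and 209 fell. With the trend removed, KRT81, COL18A1, COL6A1, COL27A1, CLDN1 and ITGA6 were among the named genes that no longer met the criteria. Whether this trend came from the cells or from the preparation of the libraries was not tested.

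**Figure D2:**
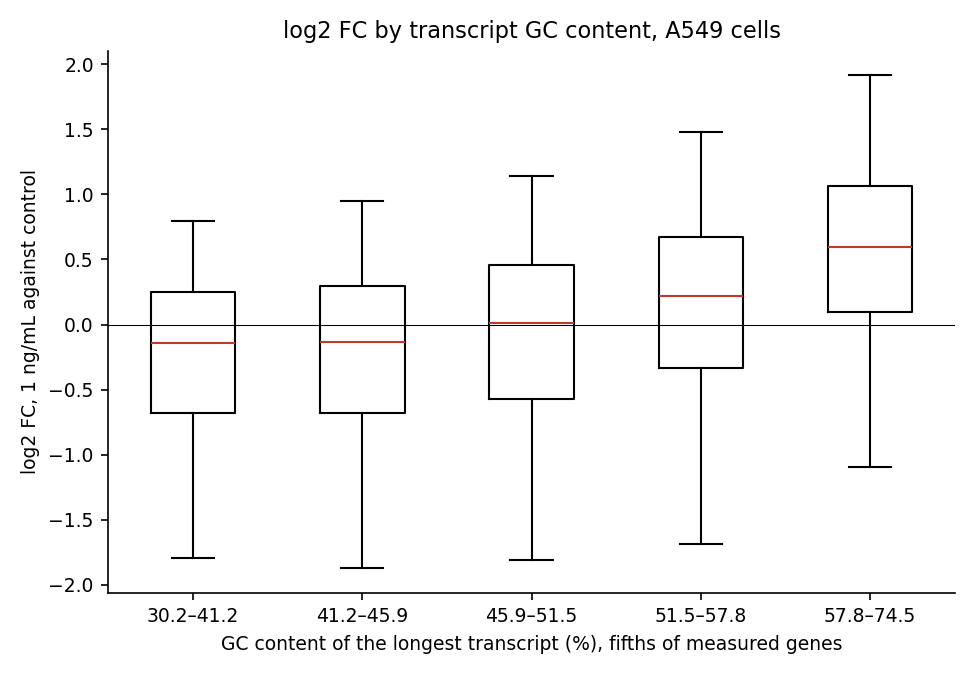
Boxes show the log2 FC at 1 ng/mL TGF-β1 in 5 groups of measured A549 genes ordered by the GC content of the longest transcript (ranges in % on the horizontal axis), with the median in red, the quartiles as box ends and the 5th and 95th percentiles as whiskers. The median runs from −0.14 in the lowest group to 0.60 in the highest.

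The largest rises began from almost no reads. IGFL1, which encodes a small secreted protein of the IGF-like family, had 0 counts in the control and 1272 at 1 ng/mL and was at least 251-fold higher, taken against the 3 counts that a count of 0 allows. COL22A1, a collagen of tissue junctions, had 0 and 491 counts, at least 97.1-fold more at 1 ng/mL. LCE3D of the cornified envelope went from 0 to 289 counts, at least 57.1-fold, and may share reads with its paralog LCE3E, which had 0 and 158 counts. Other genes of this group had a few control reads. IGFBP5, a binding protein of insulin-like growth factors, had 2 and 442 counts (131-fold, 36.1 to 1090), and IGFL3 had 2 and 398 counts (118-fold, 32.5 to 978). SLN, which encodes the calcium pump regulator sarcolipin, rose 70.9-fold (19.4 to 589), and VSTM4 rose 56.1-fold (19.0 to 274). MMP2, a matrix metalloproteinase, went from 9 to 718 counts (47.3-fold, 24.8 to 104), and SPOCK1, a testican proteoglycan, from 31 to 1898 counts (36.3-fold, 25.5 to 53.6). With so few control reads, the intervals are wide. A bound against a count of 0 takes the treated count as exact.

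Of the 10 largest falls by log2 FC, 6 were members of the list of airway secretory genes described below. That list was chosen with earlier results of these data known, so this count is a description and no independent evidence. AGR2, which encodes a disulfide isomerase needed for mucin folding, had 1154 counts in the control and 2 at 1 ng/mL, a fall of 973-fold (269 to 8044). RTN4RL2 went from 428 counts to 1 and MUC5B from 218 to 0, the latter at least 123-fold lower. MUC5AC and MUC5B are the main gel-forming airway mucins, and MUC5AC fell 112-fold (51.1 to 307) from 399 to 6 counts. CEACAM6, an adhesion molecule of epithelial cells, fell 85.9-fold (49.9 to 162). INHBB, a subunit of activin B, fell 82.5-fold (44.5 to 173) from 489 to 10 counts. FA2H, a fatty acid hydroxylase, went from 154 to 2 counts, the water channel gene AQP3 from 139 to 2, and S100P from 303 to 8. GPX2, a glutathione peroxidase, fell 74.6-fold (49.0 to 120) from 973 to 22 counts.

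In absolute terms, the reads moved most in a few abundant transcripts. CCDC80, which encodes a secreted matrix protein, went from 1867 to 59151 counts (18.8-fold, 17.9 to 19.7) and from 0.045% to 0.754% of all counts. TGFBI, an ECM protein named for its induction by TGF-β, went from 3585 to 48552 counts (8.03-fold, 7.76 to 8.31). RPS3, KRT81 and the metallothionein gene MT2A followed, with MT2A rising 5.44-fold (5.25 to 5.63) from 3664 to 33593 counts. On the other side, AKR1C2 went from 16442 to 3349 counts. FTH1, the ferritin heavy chain, S100A6, TMSB4X (thymosin β4) and EEF1A1, an elongation factor of translation, made up the rest of the 5 largest falls. TMSB4X fell 10.8-fold (10.1 to 11.5) and EEF1A1 4.09-fold (3.92 to 4.26). FTH1, TMSB4X, EEF1A1 and ribosomal protein genes have near-identical pseudogenes and KRT81 has close paralogs, so part of their reads may have been assigned elsewhere. The strand setting of the counting is not given in the sources used here, so reads of overlapping genes, such as FN1 with ATIC, HSPG2 with LDLRAD2 and FTH1 with BEST1, cannot be told apart.

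Of 20 direct targets and feedback genes of TGF-β signalling, 16 reached the minimum, 6 rose, 2 fell and 8 did not meet the criteria, and the median log2 FC was 0.70 beside 0.09 for all genes. With the GC trend removed the median was 0.32, and with the libraries thinned to the smaller total 6 rose and 0 fell. TGFBI showed the largest rise. PMEPA1, which encodes an inhibitor of receptor-activated SMADs, went from 3089 to 23780 counts (4.57-fold, 4.40 to 4.74), with the antisense gene NKILA overlapping it. CTGF, a matricellular growth factor, had 72 and 522 counts (4.30-fold, 3.36 to 5.58). RUNX1 and SKI, a SMAD corepressor, also rose. SKIL and JUNB had log2 FC values of 0.73 and 0.75, short of the required FC, and SMAD6 had 0.22. CYR61 and KLF10, an early TGF-β-inducible gene, fell 2.85-fold (2.11 to 3.88) and 2.68-fold (1.99 to 3.62) from 120 and 119 control counts. Both reached the minimum through the control only and had to differ, and 4 of the 6 rises had an ND value of 7 in both libraries.

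Among 11 measured ligands, receptors, SMADs and latency proteins, 4 rose and 0 fell. An ND value of 7 in both libraries held for 2 of the rises, and the others, TGFB1 among them, had to differ. TGFB1, the gene of the added ligand, had 92 and 828 counts (5.34-fold, 4.30 to 6.69). TGFBR1 rose 3.98-fold (3.35 to 4.74), whereas TGFBR2, with 341 and 287 counts, just missed the limit in the other direction. The latency proteins LTBP3 and LTBP4, which tether inactive TGF-β to the matrix, rose 6.12-fold (5.54 to 6.76) and 5.82-fold (4.39 to 7.85). The SMAD2, SMAD3 and SMAD4 genes had log2 FC values between −0.16 and 0.01. In the related BMP and activin branch, 4 of 11 genes rose and 4 fell. Only 1 of these rises and 3 of the falls had an ND value of 7 in both libraries, and other rises, such as INHBA, had to differ. INHBA, the activin A subunit, went from 8 to 457 counts (33.9-fold, 17 to 78.9) while INHBB fell. BMP2 rose 6.33-fold (4.42 to 9.33), BMP4 fell 4.90-fold (4.38 to 5.49) and ID1, a BMP target, fell 2.24-fold (2.09 to 2.40).

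Of 26 collagen chains, 14 reached the minimum and 13 of them rose, with a median log2 FC of 2.41. In 8 of the 13 the ND value was at least 7 in both libraries, and the other 5, COL1A1, COL1A2 and COL22A1 among them, reached the minimum only through the treated library and had to differ. Fibrillar chains changed most besides COL22A1. COL1A1, a chain of type I collagen, had 87 counts in the control and 3316 at 1 ng/mL, a rise of 22.6-fold (18.3 to 28.3). COL5A1 had 216 and 6653 counts (18.3-fold, 15.9 to 21.0), and COL5A2 had 197 and 1147. The type IV chains of basement membranes rose too. COL4A1 went from 203 to 1954 counts (5.71-fold, 4.94 to 6.63) and COL4A2 from 536 to 5637 (6.24-fold, 5.71 to 6.83). COL7A1 of anchoring fibrils rose 5.55-fold (4.60 to 6.75), and COL4A4, COL6A1, COL6A2, COL18A1 and COL27A1 rose between 2.44-fold and 5.24-fold. COL4A5 had a log2 FC of −0.69, and COL4A6, below the minimum, had 107 and 37 counts.

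The partner chain COL1A2 behaved differently over the doses. It had 5 counts in the control, 343 at 1 ng/mL and 54 at 5 ng/mL, so that it was a DEG only at the lower dose, with a rise of 40.7-fold (17.3 to 126). SPARC (16, 290 and 121 counts) and FBN1 (43, 190 and 92 counts) were also higher at 1 than at 5 ng/mL. So were THBS2 (5, 70 and 12 counts) and EFEMP1 (19, 149 and 37 counts), which stayed below the minimum. This is the order of the fibroblast markers, whose summed level was 32.8 CPM at 1 ng/mL and 13.4 CPM at 5 ng/mL. The part of fibroblast RNA in these values was not tested. COL1A1, at 3316 and 2252 counts, and COL5A1, at 6653 and 5304, stayed high at both doses. The collagens also had a high median GC content of 60.7%, and with the GC trend removed 10 of 14 chains rose and their median was 1.99.

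Other matrix genes were mixed. Of 13 measured glycoproteins and proteoglycans, 7 rose and 1 fell, with a median log2 FC of 1.14. The fall and 3 of the rises had an ND value of 7 in both libraries, and other rises, such as THBS1, had to differ. FN1, which encodes fibronectin, went from 5458 to 22009 counts (2.39-fold, 2.32 to 2.46). THBS1, which encodes thrombospondin 1, an activator of latent TGF-β, went from 54 to 717 counts (7.87-fold, 5.97 to 10.6). HSPG2, the basement membrane proteoglycan perlecan, rose 5.08-fold (4.19 to 6.20). VCAN (versican) and AGRN (agrin) both had a log2 FC of 0.98, just under the limit, and SMOC1 fell 3.44-fold (3.09 to 3.83). Of 4 measured laminin chains, 1 rose, with a log2 FC of 4.18, and it reached the minimum through 1 library only and had to differ. The other measured chains, LAMA5, LAMB1 and LAMC1, had log2 FC values between −0.31 and −0.09. Enzymes that modify collagen changed little beside their substrates, with 1 rise and 1 fall among 12. BMP1, the procollagen C-proteinase, rose 4.74-fold (3.81 to 5.97), CRTAP fell, and LOXL2, PLOD1, P4HA2 and TGM2 had log2 FC values from 0.45 to 0.90. Of the 12 enzymes, 7 had log2 FC values above 0 and 5 below. Their median was 0.34, and −0.03 with the GC trend removed.

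Matrix proteases and their inhibitors went both ways, with 5 rises and 3 falls among 10. An ND value of 7 in both libraries held for 3 of these rises and 1 fall. The others, MMP2 and MMP7 among them, reached the minimum through 1 library only and had to differ. Besides MMP2, the inhibitor TIMP2 rose 8.07-fold (7.53 to 8.67) from 845 to 11501 counts, SERPINE2 6.93-fold (6.35 to 7.58) and the metalloprotease ADAM19 11.2-fold (8.74 to 14.7). MMP7, or matrilysin, an epithelial protease, fell 12.1-fold (7.35 to 21.0) from 129 to 18 counts, and PLAU, the urokinase gene, fell 6.80-fold (5.12 to 9.16). Integrin subunits, the matrix receptors, had 4 rises and 1 fall among 9. The fall and 2 of the rises had an ND value of 7 in both libraries, and other rises, such as ITGA11, had to differ. ITGA11, a collagen receptor subunit, went from 4 to 239 counts (35.4-fold, 13.7 to 131). The fibronectin receptor subunits ITGA5 and ITGAV rose 3.34-fold (2.58 to 4.37) and 2.55-fold (2.17 to 3.01), ITGA3 rose 3.39-fold (3.10 to 3.71), and ITGA6 of epithelial hemidesmosomes fell 2.32-fold (1.93 to 2.78). All 8 genes singled out as core genes in the study, namely FN1, THBS1, COL1A1, MMP2, COL4A1, COL4A2, ITGA5 and COL5A1, rose at 1 ng/mL. They were chosen on these libraries, so their direction is no independent evidence.

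Among the transcription factors linked to EMT, 6 of 15 reached the minimum, 3 rose and 0 fell. SOX4 went from 2229 to 9106 counts (2.42-fold, 2.31 to 2.54), HMGA2 from 171 to 651 (2.26-fold, 1.90 to 2.69) and TCF4 from 112 to 382 (2.02-fold, 1.63 to 2.52). ZEB1, a repressor of E-cadherin, had 135 and 374 counts, a log2 FC of 0.71. The Snail family stayed below the minimum. SNAI1 had 25 and 6 counts and SNAI2 had 4 and 15. ZEB2 had 30 and 57 counts and TWIST1 had 4 and 8. At this depth, the change of these low genes is poorly fixed.

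Epithelial junction genes that reached the minimum fell or did not meet the criteria. Of 36 listed genes, 12 reached the minimum, 7 fell and 0 rose. CDH1, which encodes E-cadherin, had 640 counts in the control and 30 at 1 ng/mL, a fall of 36.0-fold (25 to 53.8). ERBB3, an epithelial receptor, fell 12.7-fold (8.18 to 20.5) and the epithelial transcription factor gene ELF3 4.55-fold (4.06 to 5.09). The catenins that bind cadherins at junctions fell as well. JUP (plakoglobin) fell 3.21-fold (2.86 to 3.62) and CTNND1 (p120 catenin) 3.17-fold (2.81 to 3.57). CLDN1 and PKP3 fell 2.13-fold and 2.08-fold. The desmosomal genes DSP and DSG2 and the tight junction gene TJP1 did not follow, with log2 FC values of −0.05, 0.09 and 0.36. Genes such as CDH1 and ERBB3 reached the minimum only through the control, so they had to differ, and 4 of the 7 falls had an ND value of 7 in both libraries. Below the minimum, CLDN4 had 20 and 94 counts and TJP3 had 54 and 2. With the ND minimum lowered to 6, 2 listed genes rose and 7 fell.

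Keratins changed individually. KRT7 went from 3473 to 20603 counts (3.52-fold, 3.39 to 3.65) and KRT81 from 16328 to 63609 (2.31-fold, 2.27 to 2.35). KRT8 fell 3.70-fold (3.54 to 3.87), and its filament partner KRT18, which overlaps it, had a log2 FC of −0.87. The level of KRT8 thus moved against that of KRT7, also a keratin of simple epithelia.

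Mesenchymal and contractile genes had 11 rises and 1 fall among 21, with a median log2 FC of 1.03. The fall and 8 of the rises had an ND value of 7 in both libraries, and other rises, such as TAGLN, had to differ. TAGLN, or SM22α of smooth muscle, went from 24 to 1245 counts (30.8-fold, 20.6 to 48.2). The actin-binding proteins ABLIM3 and FLNA (filamin A) rose 7.65-fold (5.90 to 10.1) and 5.70-fold (5.48 to 5.92), the latter from 2936 to 28206 counts. TPM1, a tropomyosin of stress fibres, went from 3143 to 24419 counts (4.61-fold, 4.44 to 4.78). CDH2, which encodes N-cadherin, had 561 and 2317 counts (2.45-fold, 2.23 to 2.69). With CDH1 at 640 and 30 counts, the cadherins moved in opposite directions. VIM (vimentin) and ACTA2 (α-smooth muscle actin), common EMT markers, had log2 FC values of 0.23 and 0.96 and did not meet the criteria. PDLIM5 fell 5.76-fold (5.24 to 6.33).

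Of 18 genes for actins and for proteins that bind actin monomers, cap or branch filaments, all of which reached the minimum, 5 fell, 0 rose and 13 did not meet the criteria, with a median log2 FC of −0.47. Those that fell were TMSB4X, the main monomer-sequestering peptide, the profilins PFN1 (4.45-fold, 4.07 to 4.88) and PFN2, COTL1, and CAPZB of the capping protein. PFN1 went from 1764 to 668 counts. ACTB and ACTG1, the cytoplasmic actins, had log2 FC values of 0.87 and −0.32. Among 10 YAP and TEAD targets, CTGF rose and AJUBA, CYR61 and CRIM1 fell, but only 1 of these falls and 0 rises had an ND value of 7 in both libraries.

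**Figure D3:**
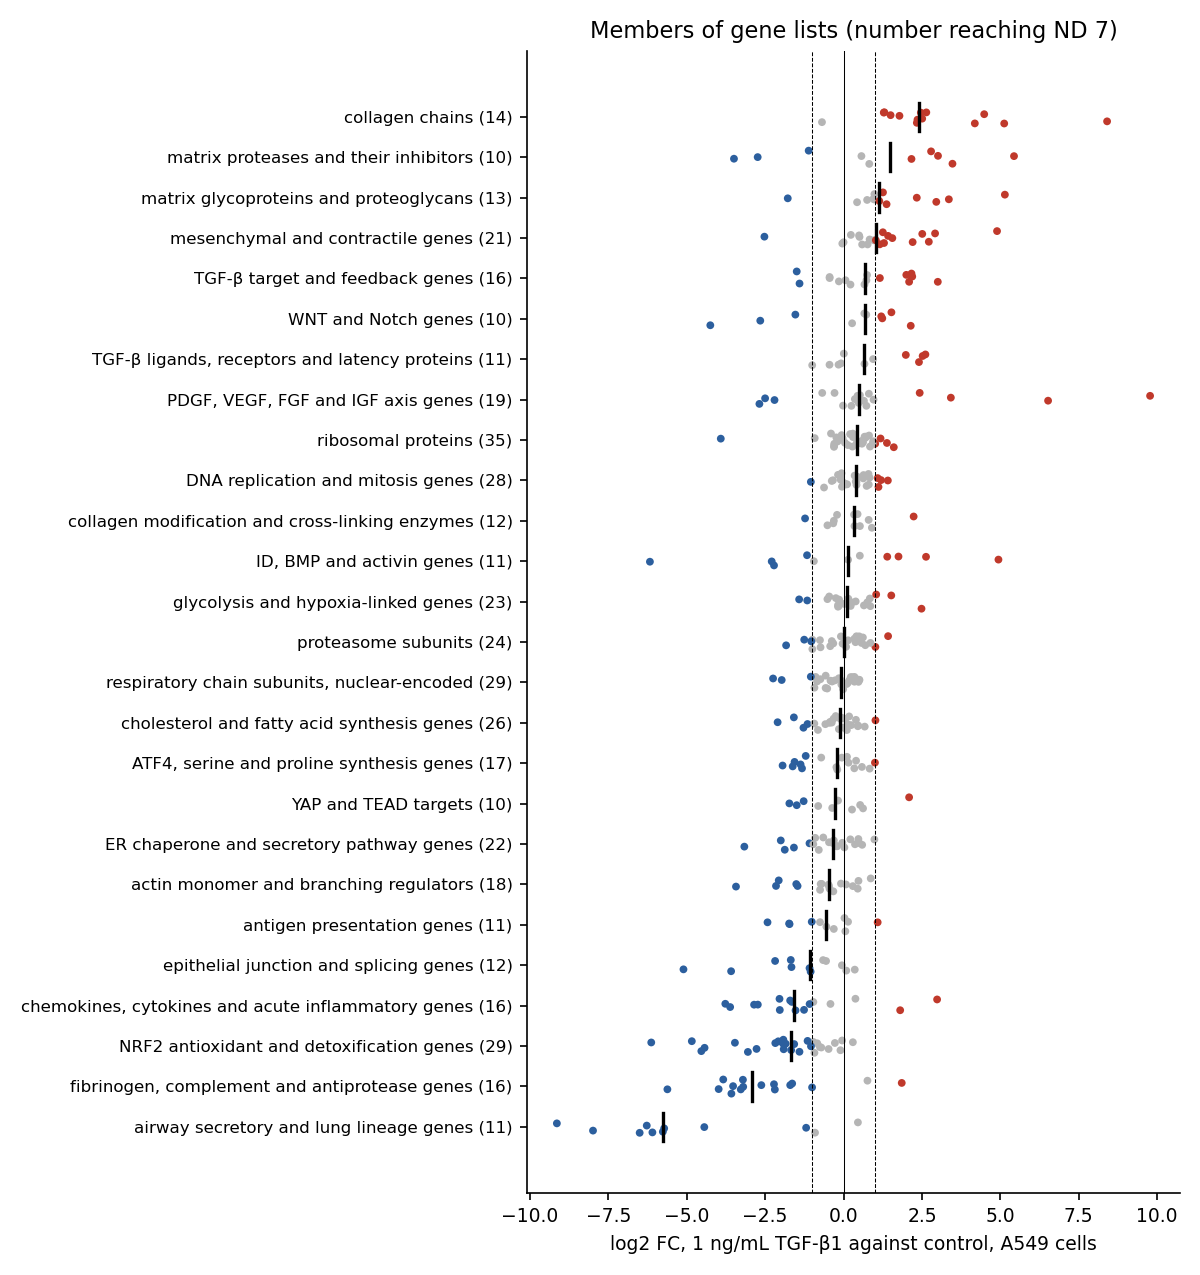
Each point is a member of a gene list that reached an ND value of 7 in at least 1 A549 library, placed by its log2 FC at 1 ng/mL TGF-β1 (red for genes that rose, blue for genes that fell, grey for others), and black bars are list medians. The lists shown have at least 10 such members and are ordered by their median, from 2.41 for collagen chains to −5.76 for airway secretory genes, and dashed lines mark an FC of 2.

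The deepest falls of any list were in airway secretory genes. Of 33 genes, 11 reached the minimum, 9 of these fell and 0 rose, with a median log2 FC of −5.76. Besides AGR2, the mucins and CEACAM6, the antimicrobial proteins LCN2 and SLPI fell 63.4-fold (30.3 to 159) and 24.0-fold (13.7 to 45.9), from 263 to 7 and from 185 to 13 counts. SPDEF, which encodes a transcription factor of goblet cells, was below the minimum with 57 counts in the control and 0 at 1 ng/mL. CEACAM5 had 69 and 0 counts. The endodermal transcription factors changed less. HNF4A fell 2.29-fold (1.90 to 2.77), and FOXA2 had a log2 FC of −0.91. Only 1 of the 9 falls had an ND value of 7 in both libraries, so the others reached the minimum through the control and had to differ. The alveolar surfactant genes SFTPA1 and SFTPC and the club cell gene SCGB1A1 had 0 counts in both, which allows up to 0.724 CPM in the control.

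The NRF2 programme fell over a broad front and from high levels. NRF2 binds the antioxidant response element and drives genes for glutathione and thioredoxin metabolism, carbonyl reduction, NADPH supply, iron storage and drug efflux. Of 33 listed genes, 29 reached the minimum, 19 fell and 0 rose, and the median log2 FC was −1.67. The list as a whole went from 29927 CPM to 10479 CPM. The minimum mattered little here, since 17 of the 19 falls had an ND value of 7 in both libraries, and 22 fell under total counts.

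Promoters are printed for 3 members that hold the letters of the antioxidant response element core, to show what such a match looks like. The sequences come from the RefSeq promoter table of GRCh38.p14 and span 300 bases around the start of the gene, read 5′ to 3′ on the strand of the gene. Capitals mark matches to the antioxidant response element core TGACNNNGC on either strand. TXNRD1 (thioredoxin reductase 1, chr12:104215529-104215828, plus strand) has 2 matches, GPX2 (chr14:64942696-64942995, minus strand) has 1 match, and GCLM (a glutamate-cysteine ligase subunit, chr1:93909381-93909680, minus strand) has 1 match.
TXNRD1: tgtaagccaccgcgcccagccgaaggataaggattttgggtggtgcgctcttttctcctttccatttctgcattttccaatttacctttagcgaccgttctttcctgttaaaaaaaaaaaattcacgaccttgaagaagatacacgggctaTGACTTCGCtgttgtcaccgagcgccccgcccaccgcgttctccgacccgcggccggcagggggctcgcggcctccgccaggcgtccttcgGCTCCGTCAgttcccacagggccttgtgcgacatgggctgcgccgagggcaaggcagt
GPX2: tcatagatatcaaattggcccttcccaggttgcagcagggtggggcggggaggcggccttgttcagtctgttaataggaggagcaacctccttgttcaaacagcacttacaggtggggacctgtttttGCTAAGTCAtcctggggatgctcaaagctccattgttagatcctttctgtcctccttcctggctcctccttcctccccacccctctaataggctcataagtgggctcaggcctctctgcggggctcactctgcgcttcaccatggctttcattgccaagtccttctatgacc
GCLM: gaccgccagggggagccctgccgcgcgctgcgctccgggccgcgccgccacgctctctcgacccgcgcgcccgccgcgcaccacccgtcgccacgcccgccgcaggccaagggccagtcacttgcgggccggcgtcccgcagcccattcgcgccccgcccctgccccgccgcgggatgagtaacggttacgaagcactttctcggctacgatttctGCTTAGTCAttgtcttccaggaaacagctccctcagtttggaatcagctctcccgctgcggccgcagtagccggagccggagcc
TXNRD1 and GPX2 fell, and GCLM, with 611 and 541 counts and a log2 FC of −0.93, did not meet the criteria. Of the 29 measured genes, 20 were matched to the promoter table and 6 of these held the core in this window, beside 13.6% of all 27305 promoters. Among the 11 matched genes that fell, 2 held it. A match in a window of this kind is a description of the letters and not a measured binding site.

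The reductases and dehydrogenases of the NRF2 group fell most after GPX2. ALDH3A1, an aldehyde dehydrogenase, had 4022 counts in the control and 236 at 1 ng/mL, a fall of 28.7-fold (25.2 to 32.9). AKR1B10 went from 5482 to 398 counts (23.2-fold, 21.0 to 25.8) and AKR1C1 from 4658 to 363 (21.6-fold, 19.4 to 24.1). AKR1C2 and AKR1C3 fell 8.28-fold (7.98 to 8.60) and 3.80-fold (3.62 to 4.0), and the AKR1C genes are near-identical paralogs that may share reads. NQO1, a quinone reductase, went from 6724 to 3564 counts (3.18-fold, 3.05 to 3.31). In the thioredoxin and glutathione systems, TXNRD1 went from 1886 to 464 counts (6.85-fold, 6.19 to 7.60), GSR from 959 to 357, SRXN1 from 1420 to 565 and TXN from 2243 to 997. SLC7A11, the cystine transporter, and GCLC fell 2.65-fold (2.35 to 2.99) and 2.22-fold (1.86 to 2.65). The efflux pumps ABCC1, ABCC2 and ABCC3 fell between 3.60-fold and 11.3-fold. In the pentose phosphate pathway, PGD, TALDO1 and TKT had log2 FC values of −0.96, −0.10 and −0.05. NFE2L2, the gene of NRF2 itself, had 407 and 380 counts and a log2 FC of −0.85. HMOX1, a heme oxygenase, had 602 and 1248 counts and was the only measured member above 0, at a log2 FC of 0.30.

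Inflammatory genes fell as well. Of 29 chemokines, cytokines and acute inflammatory genes, 16 reached the minimum, 11 fell and 2 rose, with a median log2 FC of −1.59. Only 5 of the 11 falls had an ND value of 7 in both libraries, and the others, such as CXCL2, reached the minimum through the control and had to differ. The neutrophil-attracting CXC chemokines moved together. CXCL5 went from 6358 to 3712 counts (2.89-fold, 2.77 to 3.01), CXCL1 from 702 to 363 (3.26-fold, 2.87 to 3.71), CXCL2 from 221 to 26 (14.3-fold, 9.52 to 22.4) and CXCL8 from 163 to 114 (2.41-fold, 1.89 to 3.09). IL18 fell 12.6-fold (9.17 to 17.8), PTGS2, the inducible cyclooxygenase, 7.26-fold (6.22 to 8.52) and the feedback gene SOCS3 6.81-fold (4.96 to 9.52). CCL20, below the minimum, had 99 and 3 counts. The exceptions were IL11, a cytokine of the IL-6 family known as a TGF-β target, which rose 7.93-fold (7.07 to 8.92) from 314 to 4197 counts, and IL32 (3.52-fold, 2.82 to 4.43).

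Genes of the hepatic acute phase that A549 cells express fell more uniformly. Of 25 fibrinogen, complement and antiprotease genes, 16 reached the minimum, 14 fell and 1 rose, with a median log2 FC of −2.91. The fibrinogen chains FGA, FGB and FGG went from 443 to 51, from 1147 to 161 and from 303 to 9 counts, and fell 14.6-fold (10.9 to 20), 12-fold (10.2 to 14.3) and 56.8-fold (29.5 to 125). Complement components and regulators followed, with CFB at 16.9-fold (10.6 to 28.2), C5 at 9.37-fold (7.15 to 12.5) and C3 at 4.67-fold (4.0 to 5.47). CD59, which blocks the final complement complex, rose 3.62-fold (3.37 to 3.89) from 896 to 5472 counts. In this group, 4 of the 14 falls had an ND value of 7 in both libraries. The median GC content of the group was 41.5%, and 13 genes still fell with the GC trend removed. Interferon-stimulated and antigen presentation genes showed smaller falls. Of 8 measured interferon-stimulated genes 4 fell, among them OAS1, IFI6 and IFITM2. Of 11 antigen presentation genes 4 fell, among them PSMB8, TAP2 and ERAP1, while TAPBP rose. An ND value of 7 in both libraries held for TAPBP, 3 of the interferon-stimulated falls and only 1 of the antigen presentation falls. The other falls reached the minimum through the control and had to differ.

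Growth factor genes moved in both directions within families. Of 19 genes of the PDGF, VEGF, FGF and IGF axes, 4 rose and 3 fell. Only 1 fall and 0 rises had an ND value of 7 in both libraries, so the other calls came from genes that had to differ. PDGFB, a mitogen of mesenchymal cells, went from 12 to 231 counts (11.4-fold, 6.41 to 22.4) and PDGFC from 35 to 324 (5.49-fold, 3.87 to 8.02). IGFBP3 and IGFBP1 fell 6.44-fold (5.78 to 7.17) and 5.73-fold (4.53 to 7.30), and IGF2R fell 4.63-fold, against the rise of IGFBP5. The count of IGFBP5, which fibroblasts also express, was 2, 442 and 178 at 0, 1 and 5 ng/mL. In the EGF family, EGFR and NRG1 rose 2.66-fold (2.40 to 2.96) and 3.08-fold (2.62 to 3.63), and the ligands AREG and EREG, the feedback inhibitor ERRFI1 and ERBB3 fell. Both rises and 0 of the 4 falls had an ND value of 7 in both libraries, so the genes that fell had to differ. Of 10 WNT and Notch genes, 4 rose and 3 fell, and 2 of the rises and 1 of the falls had an ND value of 7 in both libraries. DKK1, a secreted WNT antagonist, went from 1130 to 99 counts (19.2-fold, 15.7 to 23.9) and the receptor FZD7 fell 6.53-fold (4.40 to 9.96). SFRP1, also a WNT antagonist, JAG2, TCF7 and HES4 rose, while HES1 fell 2.91-fold (2.49 to 3.41). Among 7 AP-1 and immediate early genes, IER2, IER3 and FOSL2 rose, and JUN had a log2 FC of 0.70.

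Metabolic programmes had medians near 0, and falls outnumbered rises except among glycolysis and hypoxia genes. The median log2 FC was −0.12 for 26 cholesterol and fatty acid genes (1 rose, 4 fell), 0.13 for 23 glycolysis and hypoxia genes (3 rose, 2 fell) and −0.20 for 17 ATF4, serine and proline genes (1 rose, 6 fell). With DESeq2 size factors, under total counts or with the GC trend removed, 0 genes rose in the cholesterol and ATF4 lists. At least 4 and 6 genes of these lists fell under each. In the cholesterol and fatty acid list, IDI1, CYP51A1, HMGCS1 and FADS2 fell between 2.22-fold and 4.32-fold. Of the glycolytic enzymes, PFKL alone rose, and the glucose transporter gene SLC2A3 and ANGPTL4, a lipase inhibitor, rose 2.88-fold (2.59 to 3.20) and 5.63-fold (4.71 to 6.77). PSAT1, SHMT1 and ALDH18A1 of serine, glycine and proline synthesis fell between 2.60-fold and 3.90-fold. ATF4 itself stood at the limit, with 1517 and 5124 counts (counting interval of the fold 1.89 to 2.12). Of 22 secretory pathway genes, DNAJB9, XBP1, SEC61B, MANF and DNAJC3 fell and 0 rose. XBP1, a transcription factor of secretory cells, fell 4.02-fold (3.47 to 4.66).

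Of 28 DNA replication and mitosis genes, 4 rose (CDT1, CDC20, MCM5 and AURKB) and MCM2 fell, with a median log2 FC of 0.40. With the GC trend removed, 0 rose and 1 fell. MKI67 had 1209 and 2607 counts, a log2 FC of 0.35. CDKN1A, the cell cycle inhibitor p21, rose 2.11-fold (1.93 to 2.32), the only one of 7 inhibitors and cyclins to meet the criteria. Among 7 S100 genes, S100A11, S100A13 and S100A16 rose and S100P, S100A6 and S100A4 fell. S100A4, also called fibroblast-specific protein, went from 3493 to 2289 counts and fell 2.57-fold (2.44 to 2.71).

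The basic machinery of the cell served as a comparison. Of 35 ribosomal protein genes, 4 rose and 1 fell with a median log2 FC of 0.42, of 24 proteasome subunits 2 rose and 3 fell with 0.03, and of 29 nuclear-encoded respiratory chain subunits 0 rose and 3 fell with −0.10. Here too single genes stood apart. RPL15 went from 298 to 32 counts (15.7-fold lower, 10.9 to 23.4), while RPS3 rose 3.04-fold (2.98 to 3.10). Both are subunits of the same particle with several processed pseudogenes, so these values are uncertain. Of 14 cornified envelope genes only LCE3D and CNFN reached the minimum, and CNFN had a log2 FC of −0.32.

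Some DEGs of the same direction were neighbours on a chromosome. When 6968 measured genes were placed in RefSeq order, 63 runs of at least 3 consecutive genes with the same call were found, 34 of rises and 29 of falls. The longest run, of 8 genes, was the chemokine cluster on chromosome 4, where CXCL8, CXCL1, CXCL5, CXCL3, CXCL2, EREG, AREG and G3BP2 all fell. AKR1C1, AKR1C2, AKR1C3, AKR1C4 and NET1 fell on chromosome 10, and the fibrinogen genes FGB, FGA and FGG fell on chromosome 4. IGFL2, IGFL3, IGFL1 and PPP5C rose on chromosome 19, and COL18A1, COL6A1 and COL6A2 rose on chromosome 21. The neighbours G3BP2, NET1 and PPP5C were named after their values were seen. Families of tandem copies can share reads, as in the AKR1C, CXCL and IGFL clusters. How often such runs arise by chance was not computed.

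The 5 ng/mL library was compared with the same control library, so the values at both doses are not independent and are given side by side only. The median log2 FC of the collagen chains was 2.41 at 1 ng/mL and 2.72 at 5 ng/mL. It was −1.67 and −2.05 for the NRF2 genes, −5.76 and −6.97 for the airway secretory genes, −1.07 and −1.47 for the epithelial junction genes, and −1.59 and −2.36 for the chemokines. Not every list had the larger median at 5 ng/mL. The medians were 0.67 and 0.57 for the TGF-β ligands, receptors and latency proteins, and −0.33 and −0.23 for the secretory pathway genes. For the ID, BMP and activin genes they were 0.15 and −0.50. Genes that fell at 1 ng/mL held 3.32% of all counts there and 2.5% at 5 ng/mL, and genes that rose held 18.3% and 20.8%. CDH1 had 640, 30 and 8 counts at 0, 1 and 5 ng/mL, and AKR1C2 had 16442, 3349 and 808. TMSB4X had 6405, 1002 and 123 counts, and PFN1 had 1764, 668 and 92. Some responses differed more between the doses, such as ANGPTL4, with 135, 1282 and 6322 counts, and PDGFB, with 12, 231 and 941. COL1A1 had normalized counts of 2278 at 1 ng/mL and 2043 at 5 ng/mL, and TGFBI had 33357 and 31743.

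**Figure D4:**
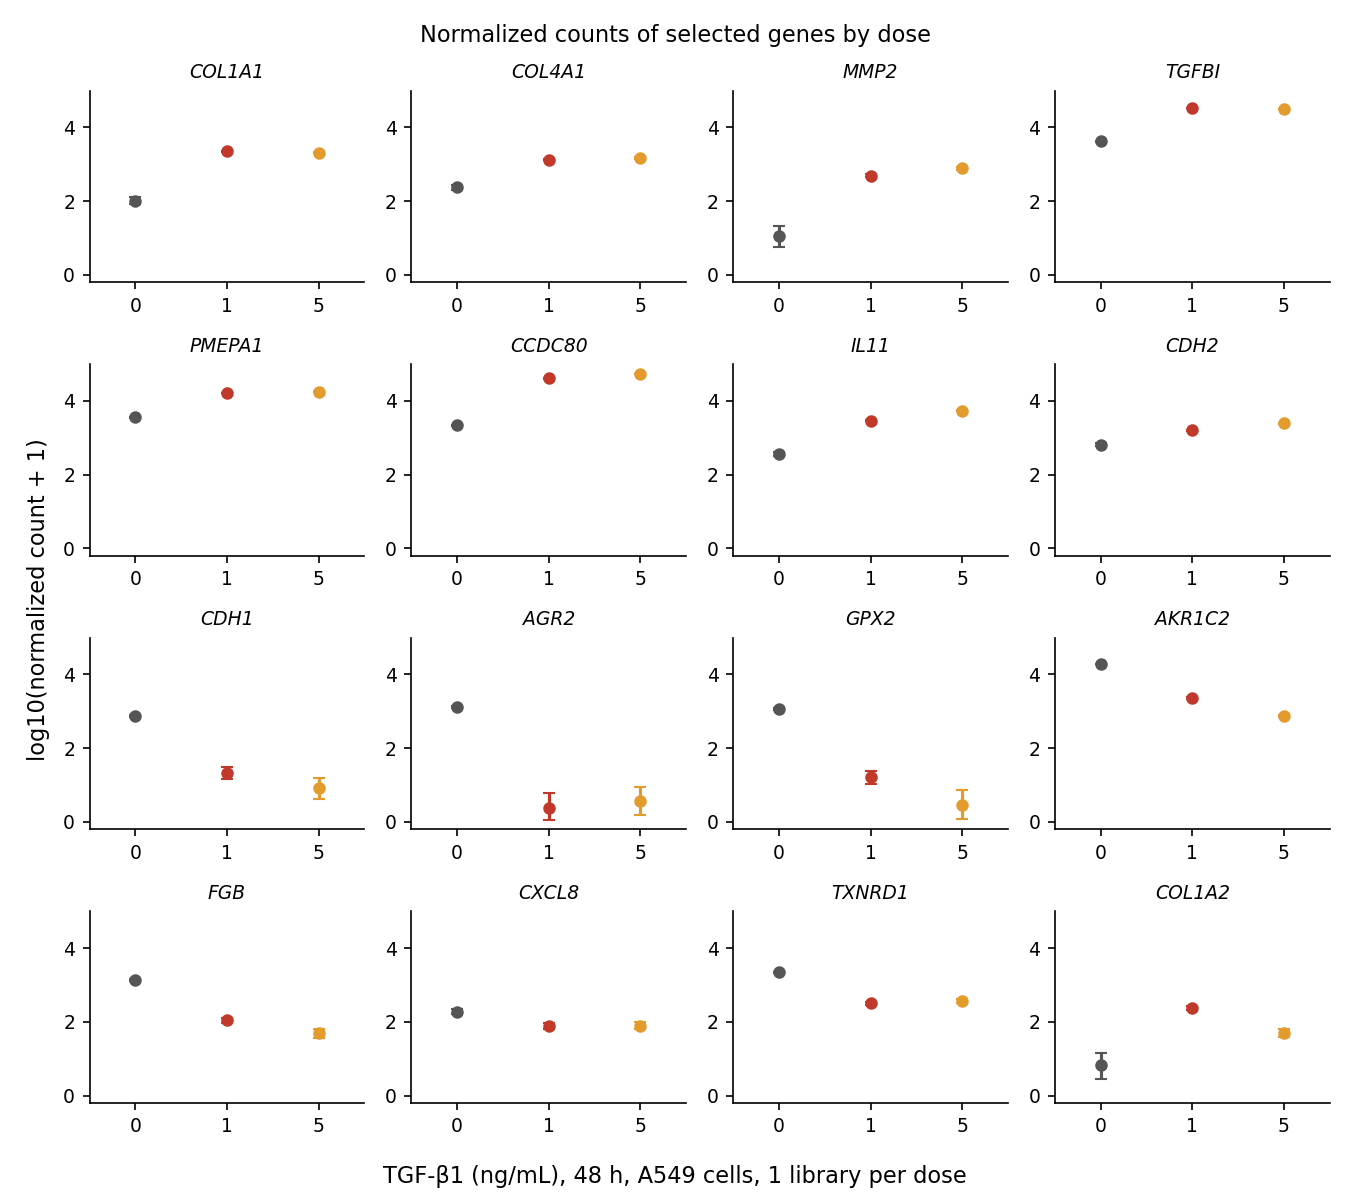
Points are normalized counts of 16 named genes in A549 cells given TGF-β1 at 0, 1 or 5 ng/mL, on the scale log10(normalized count + 1), with 1 library per dose, and bars are exact 95% Poisson counting intervals. COL1A1, TGFBI and CCDC80 are high at both doses, CDH1, AGR2 and GPX2 are low at both, and COL1A2 is highest at 1 ng/mL (343 counts).

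BEAS-2B cells at 1 ng/mL had a control library of their own. There 6681 genes reached the minimum, of which 378 rose (5.66%) and 610 fell (9.13%). Among 5747 genes that reached the minimum in both lines, 351 were DEGs in both. They were 21.3% of the DEGs of A549 cells and 35.5% of those of BEAS-2B cells. The first share includes 573 A549 DEGs that were not measured in BEAS-2B cells and could not be shared. Of the 351 genes, 124 rose in both, 207 fell in both and 20 had opposite directions. For collagen chains, TGF-β targets and chemokines, the medians over the genes measured in BEAS-2B cells were 2.53, 1.47 and −1.49, each of the same sign as in A549 cells. Of the lists with at least 10 members measured in A549 cells, 4 had medians of opposite sign in the lines, A549 before BEAS-2B. These were DNA replication and mitosis (0.40 and −0.21), ATF4, serine and proline synthesis (−0.20 and 0.52), ER chaperones and secretory pathway (−0.33 and 0.34) and the respiratory chain (−0.10 and 0.12). The last 2 values are smaller in size than the shift of −0.17 in A549 values under total counts. Each median was taken over the members measured in that line, which need not be the same. PMEPA1 and IL11 had log2 FC values in BEAS-2B cells of 4.42 and 3.20.

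Part of the A549 response concerned genes that did not reach the minimum in BEAS-2B cells. Of the 1649 A549 DEGs, 573 did not reach the minimum there, while 5747 of all 7007 genes measured in A549 cells did reach it. At most 3 counts in each BEAS-2B library were found for 75 of the genes that fell and 17 of those that rose. The same share over all 7007 genes was not computed, and a gene below the minimum can still have reads. Airway secretory genes were among those below the minimum, since 0 of the 33 reached it in BEAS-2B cells. AGR2, CEACAM6 and GPX2 had 0 counts in both of its libraries, and AKR1C2 had 0 and 2. Of the NRF2 genes, 16 reached the minimum in BEAS-2B cells, 4 fell and 1 rose, with a median log2 FC of −0.33. TXNRD1 and NQO1 fell in both lines, with log2 FC values in BEAS-2B cells of −1.97 and −1.66, but SRXN1 and TXN had −0.25 and 0.10 there. CCDC80, among the largest rises of A549 cells, had 10054 and 5205 counts in BEAS-2B cells, a log2 FC of −0.94. The difference between the cell lines was not tested, with 1 library per condition.

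**Figure D5:**
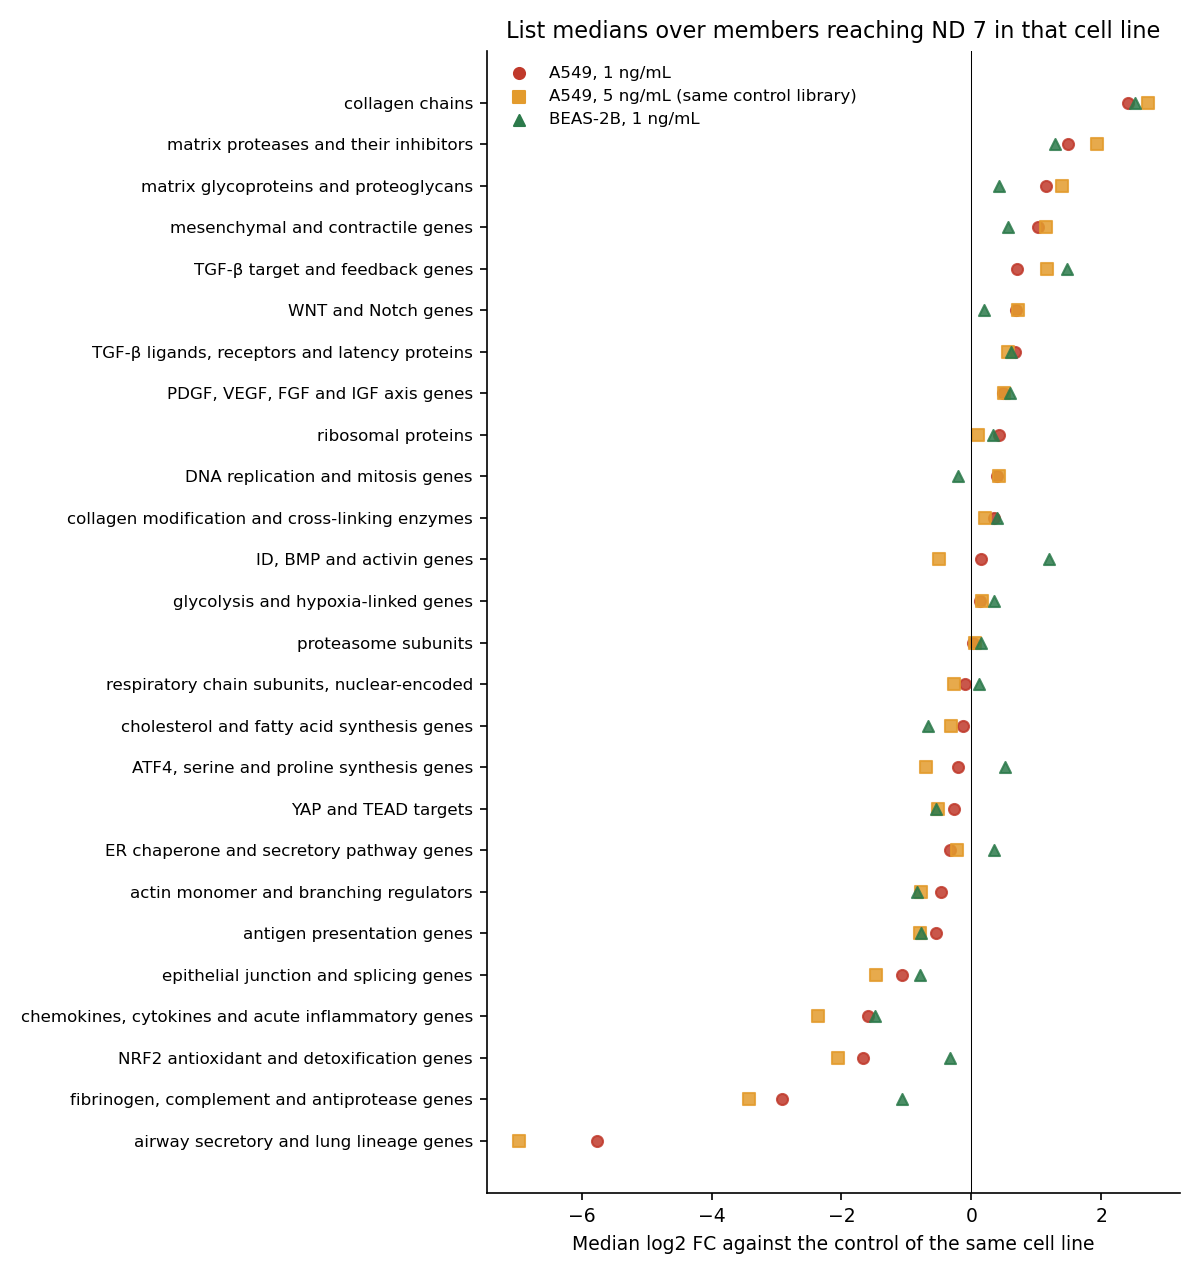
Points are the median log2 FC of the same lists, each with at least 10 measured members, against the control of the same cell line, for A549 cells at 1 ng/mL (circles) and 5 ng/mL (squares, same control library) over the members that reached ND 7 at 1 ng/mL or in its control, and for BEAS-2B cells at 1 ng/mL (triangles) over the members that reached it there. Triangles are left out for lists with fewer than 5 such members, and the NRF2 list stands at −1.67, −2.05 and −0.33.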

How the data were processed

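3′-mRNA sequencing was done on 6 libraries, grouped by their labels into A549 and BEAS-2B cells given TGF-β1 at 0, 1 or 5 ng/mL, with 1 library per condition. The read counts per gene symbol were deposited without normalization. Bowtie2, bedtools and hg19 are named in the processing notes of the submitters, without versions or roles, and the methods of the study name ExDEGA. Totals ran from 4120624 to 7841350 counts, so a count of 0, which allows 3 counts, left up to 0.724 CPM in the A549 control and 0.383 CPM at 1 ng/mL. Of 25737 entries with 24462 symbols, 286 symbols had several entries, which were kept apart.

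TMM factors were computed over the 6 libraries with edgeR 4.0.16 (R 4.3.3). Each count was divided by the effective size of its library and rescaled to the mean effective size. FC values used a pseudocount of 1, and DEGs needed an FC of 2 and an ND value of 7 in at least 1 library of the pair. No test was run, since each condition had 1 library. GC content came from GENCODE transcripts and gene order from RefSeq, both matched by symbol. The steps were tested on simulated data. The rest was done in Python 3.11.15 (pandas 2.3.3, numpy 2.4.6, scipy 1.17.1) and plotted with matplotlib 3.10.9.

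Genes were named if they were among the 10 largest rises or falls by log2 FC, the 5 largest in normalized counts, members of 42 gene lists, core genes of the study, or DEGs of opposite direction in BEAS-2B cells, except that some items are not reported here. The members and the lists were chosen with earlier results of these data known. The alternatives were DESeq2 1.42.0 size factors, total counts, upper quartile factors, other filters, pseudocounts, minimums and FC limits, thinning, summed entries and removal of the GC trend.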

Additional observations from a re-analysis of the deposited data

Results flagged for a closer look

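At the lower dose, 20 of the 351 DEGs shared by A549 and BEAS-2B cells changed in opposite directions, each against the control of its own line. The difference was not tested, with 1 library per condition. In A549 cells 7 of them fell. GDF15, a stress-induced cytokine of the TGF-β family, had a log2 FC of −2.22 in A549 and 1.84 in BEAS-2B cells. SLC23A2, a vitamin C transporter, had −2.90 and 1.13, and SLC6A6, a taurine transporter, had −1.60 and 2.47. HES1, a Notch target, had −1.54 and 1.82. LRP6, a WNT coreceptor, had −1.36 and 1.03. EPB41 had −1.34 and 1.01, and the bradykinin receptor gene BDKRB2 had −1.08 and 1.67.

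The other 13 rose in A549 cells and fell in BEAS-2B cells. LINC01279 had log2 FC values of 4.22 in A549 and −1.76 in BEAS-2B cells, and the cadherin gene CDH4 had 2.82 and −2.08. GNG4 had 2.12 and −1.10. FSTL1, a secreted follistatin-like protein, had 1.94 and −1.04, and TMEM91 had 1.89 and −1.04. DTX2 had 1.52 and −1.58, and SIGIRR, an inhibitory interleukin receptor, had 1.51 and −1.53. BTN3A1 had 1.27 and −1.10. SFRP1, a WNT antagonist, had 1.24 and −1.23. MVP had 1.12 and −2.13, CHMP1A had 1.11 and −1.02, LENG1 had 1.05 and −1.02, and PLCB3 had 1.01 and −1.18. Under total counts, MVP, CHMP1A, LENG1 and PLCB3 no longer met the criteria in A549 cells.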

How the results depend on the processing

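Against 1649 DEGs at 1 ng/mL (766 up, 883 down, 46.5% up), the counts moved with the limits. An ND value of 7 in both libraries left 747 (389 up, 358 down, 52.1% up), a minimum of 8 left 1012 (496, 516, 49.0%), and no minimum gave 6020 (2763, 3257). On log2(CPM + 1) there were 441 (228, 213, 51.7%). An FC of 1.5 gave 3205 (1690, 1515, 52.7%) and an FC of 3 gave 674 (254, 420, 37.7%). The share that rose was 42.9% with DESeq2 size factors, 32.2% with total counts (536 up, 1131 down) and 41.3% with the GC trend removed. Of 250 named DEGs, 125 to 250 met the criteria under each of the 17 alternatives and 0 changed direction. Their log2 FC values moved beyond the counting interval for 75 genes under total counts and for 116 with the GC trend removed. No paired analysis was possible because each condition had 1 library, and no library could be left out.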
